A study of Mus musculus with 24 samples.

Results

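Alternative 3′ splice site events were taken as every event of the type a3ss in the deposited splicing tables of this mouse brain series, 1133 of 8935 events of all types. In such an event an intron has a single start and may end at either of 2 acceptor sites, so that the exon after it is longer (upstream site used) or shorter (downstream site used). The level of an event is its PSI, a share between 0 and 1 that the authors estimated in each library. The PSI of these events was read as the share of transcripts that use the upstream site: where only the upstream site is the start of an annotated exon the median PSI was 0.941 (618 events), and where only the downstream site is annotated it was 0.0561 (369 events). The remaining 64 events with both sites annotated and 82 with neither had median PSI of 0.124 and 0.340.

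The study took brain tissue from mice at postnatal day 9, the region just behind the thalamus with the cortex removed, and compared mice lacking Celf6, an RNA-binding protein gene, with wild-type mice. TRAP, which pulls down tagged ribosomes with their RNA, was driven by a transgene for serotonin cells, and the total RNA of the tissue is called input. The strain of the mice and the construct of the knockout are not stated in the labels. The groups were KO (Celf6 knockout) TRAP with 5 libraries, WT (wild type) TRAP with 5, KO input with 5 and WT input with 3, and all groups share the age and the region; the labels name no other treatment. WT input 2 and WT input 3 differed by as little as repeat runs of a single library (their chi-square per gene was 1.36, the range over repeat runs was 1.39 to 2.67, and that over other pairs within a group was 26.2 to 95.3) and were counted as 1 sample, written WT input 2/3. WT input 4, set aside by the submitters, had 325072 gene counts and no PSI. Nothing states that each library came from a separate litter or culture, and p-values measure only the spread between these samples.

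The acceptor of an intron is recognised by the branch point, a run of pyrimidines and a final AG, and neighbouring AGs can compete. A distance between the sites that is a multiple of 3 keeps the reading frame and adds or drops whole amino acids, while other distances within coding sequence shift the frame. Tandem acceptors 3 bases apart are a well-known class that changes a protein by as little as a single residue, and in neurons acceptor choice is known to set isoforms of proteins such as synapsin and a subunit of the NMDA receptor.

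The 19 libraries with PSI, before WT input 2 and 3 were merged, had 3390423 to 6861963 gene counts each. After merging, between 228 and 465 of the 1133 events had a PSI in a TRAP library, against 255 to 385 in an input library. Serotonergic markers checked the pulldown: 8 of 8 were higher in TRAP by edgeR's quasi-likelihood test (adjusted p below 0.05), and their summed level was 4053 to 10267 CPM (a gene’s counts scaled to the library total) in TRAP libraries, against 155 to 281 CPM in input libraries. Of 8 astrocyte markers 3 were lower in TRAP, with summed levels of 201 to 986 CPM in TRAP and 793 to 1490 CPM in input. Of 10 oligodendrocyte lineage markers 6 were lower, with 1101 to 5562 CPM in TRAP and 5013 to 13191 CPM in input. Of 9 markers of other neurons 2 were lower, while 0 of 8 microglial and 0 of 5 endothelial markers passed. None of these markers was at 0 in TRAP, and the part of the other cell types in the splicing values was not tested. Celf6 itself averaged 51.3 ± 38.1 CPM in KO TRAP libraries and 142 ± 41.5 CPM in WT TRAP libraries (SD, n = 5 each), and 15.2 ± 6.37 CPM in KO input and 51 ± 47.2 CPM in WT input (SD, n = 5 and 3). The groups overlapped: the library labelled KO TRAP 1 had 115 CPM, within the 85.3 to 188 CPM of the WT TRAP libraries. The library labelled WT input 2/3 had 15.4 CPM, within the 4.79 to 22.0 CPM of the KO input libraries. Whole-gene counts can include exons that a deletion leaves in place, and the genotype results below are also given without these libraries.

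The events lay in 921 genes or gene groups, and 3 events had no gene. More than 1 event was listed in 153 genes, with 7 in Ckmt1 (a mitochondrial creatine kinase), 6 in Eef1b2 (a translation elongation factor subunit) and 5 in Btbd17, and 177 events shared a site with another event, so the events are not independent of each other. Chromosome 11 held 136 of them, chromosome 2 held 129 and chromosome 7 held 91. The sites were 1 to 9771 bases apart, with a median of 73 bases, and the distance was a multiple of 3 in 508 events (44.8%). Pairs 3 bases apart were the most common short distance with 82 events; there were 28 at 4 bases, 20 at 5, 17 at 6 and 13 at 12. Per the authors' table, 369 events (32.6%) lay in genes bound by CELF6 in CLIP, an assay that maps where a protein touches RNA.

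Most of the events had a mean PSI near 0 or 1 among the values that the authors kept. They kept a PSI only with a credible interval of at most 0.20. The part of this limit in the shares below, at the edges and by distance, was not tested. The mean PSI over libraries was above 0.9 in 529 events (46.7%), below 0.1 in 458 (40.4%) and between these limits in 146 (12.9%). Dominance of the upstream site was more frequent at short distances. The upstream site had a PSI above 0.9 in 77.8% of the 90 events with sites up to 3 bases apart and in 85.1% of the 94 events at 4 to 12 bases. At longer distances the shares were 42.9% of 324 at 13 to 60 bases, 44.9% of 405 at 61 to 300 bases, 29.1% of 148 at 301 to 1000 bases and 20.8% of 72 beyond 1000 bases. The share with intermediate use was highest at the longest distances, 29.7% at 301 to 1000 bases and 34.7% beyond. It was 12.2% up to 3 bases, 4.26% at 4 to 12, 9.57% at 13 to 60 and 7.65% at 61 to 300 bases. By reading frame, the median PSI was 0.936 for sites 3 bases apart (82 events), 0.820 for other multiples of 3 (426) and 0.176 for distances that are no multiple of 3 (625). These medians lie between the edges, where few events are, and the shares were closer. Other multiples of 3 had 47.4% of events above 0.9, 40.1% below 0.1 and 12.4% between, and distances that are no multiple of 3 had 42.1%, 44.8% and 13.1%. Only 78 events had a PSI in all 18 libraries and 520 had one in 1 or 2 libraries, so these levels rest on different libraries for different events. Among 505 events above 0.9 whose gene had counts, the median gap between PSI and 1 was 0.0539 in the tertile with the lowest gene counts and 0.0533 in the tertile with the highest. Among 436 events below 0.1, the median PSI was 0.0516 in the lowest tertile and 0.0555 in the highest.

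**Figure D1:**
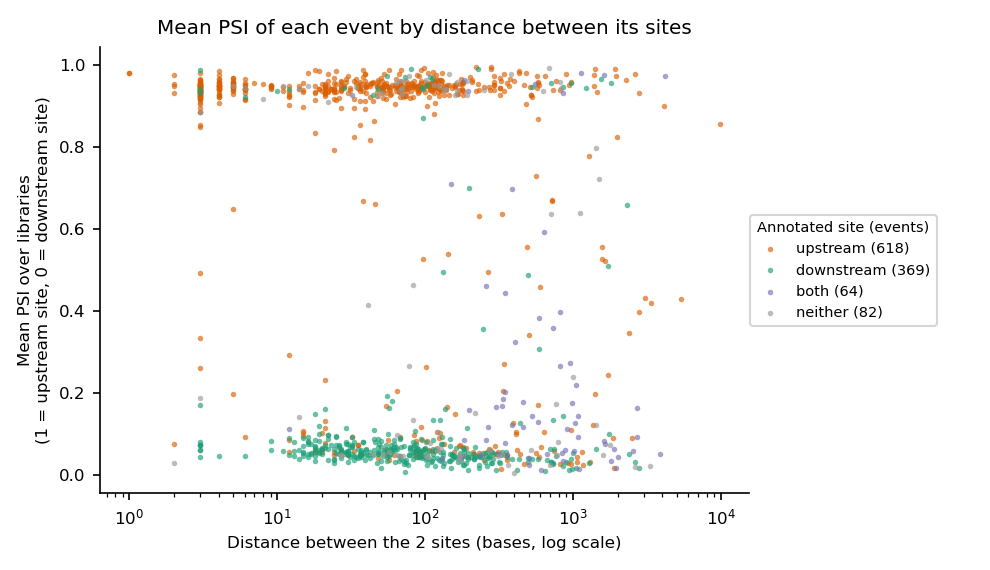
Mean PSI of each of the 1133 events (vertical axis, share of transcripts using the upstream site) against the distance between the sites in bases (horizontal axis, log scale), coloured by which of the sites starts an annotated exon. The points crowd at the upper and lower edges, 529 above 0.9 and 458 below 0.1, and the share of events in the middle is highest at the longest distances.

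**Figure D2:**
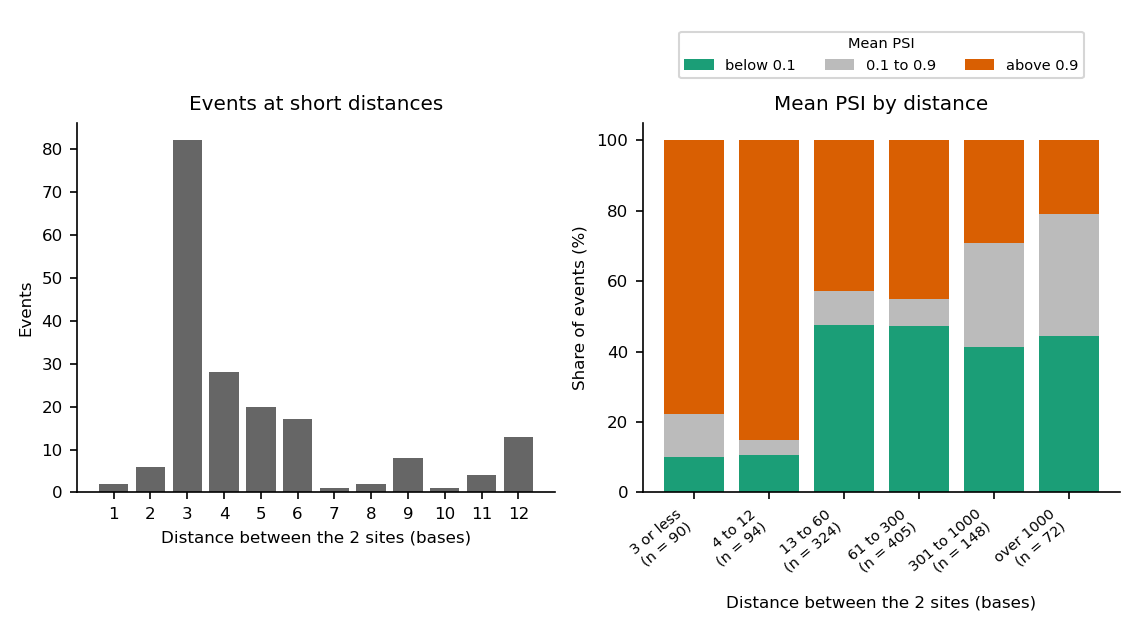
Left, the number of events at each distance up to 12 bases, with 82 at 3 bases. Right, the share of events with mean PSI below 0.1, from 0.1 to 0.9 and above 0.9 in 6 ranges of distance, with upstream use most frequent at the short distances.

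Acceptor use was compared between serotonin-cell TRAP and input with limma on log2(PSI/(1−PSI)), fitted over all event types, with genotype and sequencing run as terms. A PSI in at least 3 TRAP and 3 input libraries was needed, which 310 of the 1133 events had (27.4%). None passed an adjusted p of 0.05 (limma, Benjamini-Hochberg over 2621 events; smallest adjusted p 0.0514), as in all event types, where 0% passed. At an unadjusted p below 0.05 there were 31 events, 19 higher and 12 lower in TRAP, or 10% of those tested, beside 10% of all event types. The median size of the difference was 0.28 on the log2 scale for acceptor events and 0.34 for all events tested. In simulated data of the same size, the test found 23.4%, 71.0% and 90.2% of events shifted by 1, 2 and 3 on the log2 scale among the 2621 events, so small shifts would mostly be missed.

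TRAP and input mostly shared the same dominant site. In 250 of the 310 events (80.6%) both means lay at the same edge, above 0.9 or below 0.1, and the median absolute difference of mean PSI was 0.00912. Across the 310 events the mean PSI in TRAP and in input had a Pearson correlation of 0.992, a description over events whose libraries come from the same brains. A total of 11 events differed by more than 0.1 in mean PSI, 5 higher and 6 lower in TRAP, and 24 of the 31 events with an unadjusted p below 0.05 lay at an edge in both.

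**Figure D3:**
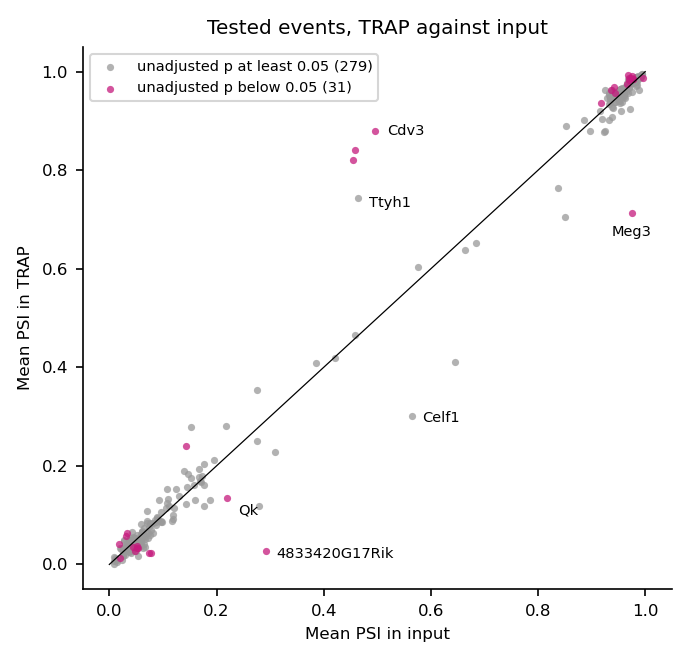
Mean PSI in TRAP (vertical axis) against mean PSI in input (horizontal axis) for the 310 tested events, with the 31 events at an unadjusted p below 0.05 in colour and the diagonal as a line. Most points lie in the corners, and gene names mark events away from the line, such as Cdv3 at 0.879 in TRAP and 0.496 in input.

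Eef1b2, which encodes the beta subunit of the complex that reloads elongation factor 1 with GTP, gave the smallest p. Its 3 sites on chromosome 1 (mm10) make 3 of the tested events: 63177723, 63177754 and 63177867. For the pair at chr1:63177754-63177867, 113 bases apart, PSI in KO TRAP was 0.987, 0.996, 0.997, 0.993 and 0.984, and in WT TRAP 0.982, 0.992, 0.991, 0.995 and 0.997. In KO input it was 0.983, 0.983, 0.979, 0.973 and 0.967, and in WT input 0.980, 0.975 and 0.971. Of the 10 TRAP libraries, 9 lay above every input library, although all values favoured the upstream site of the pair. The mean was 0.991 ± 0.00532 in TRAP (SD, n = 10) and 0.976 ± 0.00599 in input (SD, n = 8), a log2 difference of 1.05 (SE 0.18; limma, adjusted p = 0.0514). It was 0.80 within the first sequencing run and 1.45 within the second. Most of the TRAP values were above 0.99 and entered the fit as 0.99, so the difference and its SE depend on that limit. This event passed when certain single libraries were left out (limma, adjusted p = 0.0046 without WT TRAP 1, 0.0457 without KO input 1 and 0.028 without KO input 2). It did not pass when any other single library was left out. With the brain as a replicate block the log2 difference was 0.95 (SE 0.21; limma, unadjusted p = 0.00255, adjusted p = 0.703). The event from 63177723 to 63177867, 144 bases apart, shares the downstream site and had a log2 difference of 1.13 (SE 0.25; limma, adjusted p = 0.123, and 0.0335 without WT TRAP 1), with 7 of 10 TRAP libraries above all input libraries. In the event from 63177723 to 63177754, 31 bases apart, PSI was 0.0664 ± 0.0314 in TRAP (n = 9) and 0.0694 ± 0.0149 in input (n = 3), so that the site at 63177754, the annotated exon start, was used most in TRAP and in input.

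The relative level of Eef1b2 transcripts was higher in TRAP as well, 394 ± 189 CPM in TRAP and 136 ± 28.0 CPM in input (SD, n = 10 and 8), a log2 fold change of 1.61 (SE 0.26; edgeR, adjusted p = 0.000323). In these bulk samples the number of cells of a type and the RNA per cell cannot be told apart. TRAP and input also differ both in the cells sampled and in ribosome-bound against total RNA, which cannot be separated here for counts or PSI. The part of read number in the PSI difference was not tested. Over the 250 genes that carry the tested events, 249 passed the filter on counts and 19 (7.63%) differed between TRAP and input, 11 higher and 8 lower, beside 4.72% of the 14261 genes tested. With the brain as a replicate block, which again rests on 5 KO and 2 WT pairs, that count was 7. Without WT input 5 it was 9, without WT input 1 it was 11 and without KO input 3 it was 12.

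Cdv3, the gene of a conserved protein of little-known function, had the largest difference of mean PSI. Its sites at chr9:103355313-103356029, 716 bases apart on the minus strand, had a PSI of 0.991, 0.991, 0.536 and 0.966 in KO TRAP 1, 3, 4 and 5 and of 0.913 in WT TRAP 2. In KO input 1, 2 and 3 the values were 0.696, 0.325 and 0.394, and in WT input 1, 2/3 and 5 they were 0.677, 0.572 and 0.311. Of the 5 TRAP libraries with a value, 4 lay above every input library, and KO TRAP 4 lay among them. The means were 0.879 ± 0.195 in TRAP (SD, n = 5) and 0.496 ± 0.175 in input (SD, n = 6), a log2 difference of 4.87 (SE 1.08) that did not pass (limma, adjusted p = 0.254). With a single WT library among the TRAP values, genotype and RNA kind are poorly separated for this event. A second event with the same sites and an exon end a base away, and an event with an upstream site 3 bases further in (713 bases apart), share its reads and gave log2 differences of 4.14 (SE 1.20) and 3.96 (SE 1.14; limma, adjusted p = 0.293 for both). WT TRAP 1 had a value in both, 0.648 and 0.595, which lay inside the input ranges with their highest values of 0.695 and 0.632. Cdv3 transcript level was 34.8 ± 12.5 CPM in TRAP and 31.9 ± 9.46 CPM in input, a log2 fold change of 0.13 (SE 0.31; edgeR, adjusted p = 0.874).

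Qk encodes quaking, an RNA-binding protein of glia that regulates splicing and myelin transcripts. At chr17:10213433-10214194, 761 bases apart, PSI in KO TRAP was 0.213, 0.0994, 0.129, 0.158 and 0.159, and in WT TRAP 0.190, 0.124, 0.0884, 0.0907 and 0.102. In KO input it was 0.163, 0.335, 0.212, 0.225 and 0.143, and in WT input 0.164, 0.321 and 0.198. Of 10 TRAP libraries, 6 lay below every input library and the others overlapped with them. The upstream site was used in 0.135 ± 0.0432 of transcripts in TRAP (n = 10) and 0.220 ± 0.0719 in input (n = 8), a log2 difference of −0.82 (SE 0.27; limma, adjusted p = 0.293). The transcript itself was at 390 ± 160 CPM in TRAP and 643 ± 202 CPM in input (log2 fold change −0.78, SE 0.26; edgeR, adjusted p = 0.0789). A second Qk pair, 1280 bases apart and sharing a site with the first, ran from 0.215 to 0.982 in TRAP (n = 8) and from 0.650 to 0.986 in input (n = 8), with a log2 difference of −0.85 (SE 1.02; limma, adjusted p = 0.845).

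Meg3, an imprinted long noncoding RNA, had the sites farthest apart of all events, 9771 bases. PSI was 0.370, 0.354, 0.937 and 0.961 in KO TRAP 2 to 5 and 0.947 in WT TRAP 2. It was 0.945, 0.998, 0.979 and 0.960 in KO input 1 to 4 and 0.976 and 0.994 in WT input 1 and 2/3. The 2 low values were both KO TRAP libraries of the first run, and the other 3 TRAP libraries lay close to the input range. The log2 difference was −3.52 (SE 1.00; limma, adjusted p = 0.293), −4.81 within the first run and −0.33 within the second. The annotated Meg3 gene had only 2 to 25 counts in TRAP libraries and 4 to 183 in input libraries, so that its reads were few.

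The other 4 events of the 10 with the smallest p were near an edge throughout. In Tpm1, a tropomyosin of the actin cytoskeleton, PSI for sites 1124 bases apart was 0.993 ± 0.00479 in TRAP and 0.968 ± 0.0207 in input (log2 difference 1.29, SE 0.36; limma, adjusted p = 0.255). Most of its TRAP values were above 0.99 and entered the fit as 0.99. Agpat1, an enzyme of phosphatidic acid synthesis, gave 0.983 ± 0.00776 in TRAP and 0.969 ± 0.0120 in input with sites 88 bases apart (0.92, SE 0.27; limma, adjusted p = 0.265). Both had n = 10 and n = 8, and neither gene's sites separated the libraries fully, with 2 and 6 of 10 TRAP libraries above all input libraries. Mtch2, a carrier protein of the mitochondrial outer membrane, had a PSI of 0.0330 ± 0.0106 in TRAP (n = 8) and 0.0519 ± 0.0142 in input (n = 7) at sites 27 bases apart (−0.74, SE 0.20; limma, adjusted p = 0.255). Hn1 had 0.0271 ± 0.00982 in TRAP (n = 8) and 0.0475 ± 0.00525 in input (n = 7) at sites 39 bases apart (−0.80, SE 0.23; limma, adjusted p = 0.265), with 6 of 8 TRAP libraries below all input libraries.

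**Figure D4:**
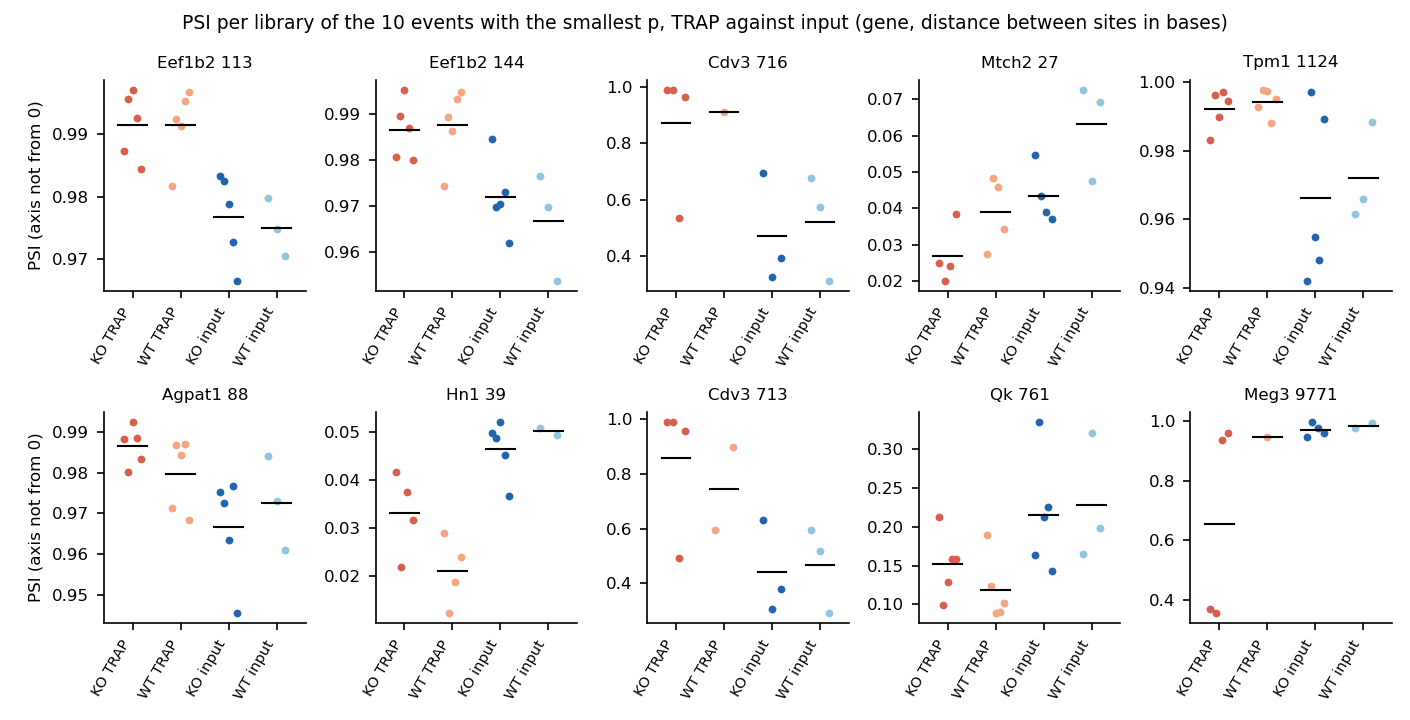
PSI per library (vertical axis) of the events with the smallest p between TRAP and input, with TRAP libraries left of input libraries in each panel, bars at the mean of each group, and vertical axes that differ between panels and do not start at 0. Eef1b2, Tpm1 and Agpat1 stay near 1 and Mtch2 and Hn1 near 0, while Cdv3, Qk and Meg3 spread over a wider range.

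Tandem acceptors 3 bases apart hardly varied. Of the 82 pairs 18 could be tested, with 14 above 0.9 and 4 between 0.1 and 0.9, and their TRAP minus input difference of mean PSI ran from −0.0267 to 0.0175 (smallest adjusted p 0.605, limma). Gnb1, a G protein beta subunit, was the clearest pair with real use of both sites: its PSI was 0.293, 0.274, 0.245, 0.290 and 0.220 in KO TRAP and 0.202, 0.179, 0.306, 0.226 and 0.261 in WT TRAP. In input it was 0.386, 0.295, 0.242 and 0.294 in KO libraries and 0.200, 0.248 and 0.270 in WT libraries. All groups overlapped, with means of 0.250 ± 0.0423 in TRAP (n = 10) and 0.276 ± 0.0585 in input (n = 7; limma, adjusted p = 0.821). A further 4 pairs among those with the largest differences overlapped between TRAP and input. Pcbp2, a poly(C)-binding protein, averaged 0.947 in TRAP and 0.930 in input. Fau, a ribosomal protein precursor, averaged 0.880 in TRAP and 0.897 in input. Zcrb1, an RNA-binding protein of the minor spliceosome, averaged 0.902 in TRAP and 0.886 in input. Mtss1l averaged 0.162 in TRAP and 0.176 in input. The direction of the Mtss1l difference turned when WT input 1 was left out.

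Events with real use of both sites in this tissue were described by level alone, as the 21 tested events with a mean PSI of 0.2 to 0.8, a set chosen after the values were seen. Rpl13a, a ribosomal protein gene, used its sites 257 bases apart almost equally and steadily, 0.399 to 0.537 in 8 TRAP libraries and 0.415 to 0.492 in 6 input libraries. Mapk10, the neuronal stress kinase JNK3, had sites 5 bases apart with 0.512 to 0.729 in 6 TRAP and 0.568 to 0.776 in 6 input libraries. Syn1, in which an acceptor of this kind separates synapsin Ia and Ib, had sites 38 bases apart with 0.503 to 0.805 in 6 TRAP libraries and 0.623 to 0.771 in 6 input libraries. Vegfb, whose acceptor choice sets the end of the growth factor, had sites 101 bases apart with 0.140 to 0.344 in 7 TRAP libraries and 0.189 to 0.486 in 5 input libraries. In these 4 genes, shown as examples and picked by no rule, the TRAP and input ranges overlapped, and the steadiest of them was Rpl13a. Surf6 of the same set did not overlap, with sites 1711 bases apart. Its PSI was 0.247, 0.348 and 0.248 in TRAP and 0.224, 0.240, 0.209 and 0.197 in input (limma, unadjusted p = 0.120).

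Several long-distance events were far less steady within a group. Anks1b, a scaffold of the postsynaptic density, had sites 2798 bases apart and PSI of 0.482, 0.153 and 0.140 in KO TRAP and 0.0462, 0.342, 0.980, 0.932 and 0.196 in WT TRAP. Gpm6b, a membrane glycoprotein related to myelin proteolipid, ran from 0.0725 to 0.980 in 5 TRAP libraries and from 0.208 to 0.985 in 5 input libraries at 1561 bases. Celf1, the CELF family member best known for splicing regulation, had PSI of 0.117, 0.231 and 0.592 in KO TRAP and 0.409 and 0.155 in WT TRAP, for sites 3075 bases apart. In input it was 0.605 and 0.459 in KO and 0.938, 0.673 and 0.146 in WT. Its mean was 0.301 ± 0.198 in TRAP and 0.564 ± 0.291 in input (SD, n = 5 each), and the log2 difference of −1.93 (SE 1.26) did not pass (limma, adjusted p = 0.672). Within the second run RNA kind and genotype cannot be told apart for this event, which had a PSI there only in KO TRAP 4 and WT input 5. The transcript 4833420G17Rik, at 731 bases, gave 0.0267 ± 0.0177 in TRAP (n = 6) and 0.293 ± 0.430 in input (n = 4), the input libraries differing widely among themselves (limma, adjusted p = 0.495). Ttyh1, a chloride channel family gene of glia, gave 0.743 ± 0.235 in TRAP (n = 3) and 0.465 ± 0.142 in input (n = 6; limma, adjusted p = 0.512).

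Among genes of RNA-binding and splicing factors 42 events were listed and 12 tested between TRAP and input, with 3 positive and 9 negative differences and a median of −0.10 on the log2 scale. Among synapse and vesicle release genes 30 were listed and 11 tested, with 2 positive and 9 negative and a median of −0.38. Of these 9, 4 were events of Dnm1 that share sites (−0.99, −0.55, −0.82 and −0.69), so they are not independent. Cytoskeleton and motors had 17 listed and 7 tested, with 5 positive and 2 negative and a median of 0.43. Channels and receptors had 13 listed and 3 tested, with 1 positive and 2 negative and a median of −0.07. Chromatin and transcription had 30 listed and 3 tested, with 1 positive and 2 negative and a median of −0.13. Ubiquitin and protein turnover had 12 listed and 4 tested, with 2 positive and 2 negative and a median of 0.04. In all 6 lists 0 events passed. The median over all event types was −0.03. Over all 310 tested acceptor events 157 differences were positive and 153 negative, with a median of 0.00555. Dnm1, the synaptic vesicle fission GTPase dynamin, had 3 acceptor sites that make 4 tested events, at 850, 573 and 1423 bases, with the pair at 573 bases listed with 2 upstream exons. The first had a PSI of 0.119 ± 0.0846 in TRAP (n = 10) and 0.176 ± 0.109 in input (n = 8). The first event at 573 bases had 0.963 ± 0.0565 in TRAP and 0.989 ± 0.00893 in input (n = 10 and 8), and the other had 0.924 ± 0.118 in TRAP and 0.972 ± 0.0252 in input (n = 10 and 8). The last had 0.765 ± 0.205 in TRAP (n = 9) and 0.838 ± 0.152 in input (n = 8). The middle site was thus preferred in both RNA kinds, and 0 of the 4 events passed. Dlgap4, a postsynaptic scaffold, had 0.0414 ± 0.0316 in TRAP (n = 10) and 0.0652 ± 0.0363 in input (n = 7) for sites 309 bases apart (limma, adjusted p = 0.672).

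Grin1, the obligatory NMDA receptor subunit, uses acceptor sites in its last exon to make alternative C-terminal tails. The pair 356 bases apart is listed as 2 events that differ in the upstream exon, and both favoured the downstream site. The first averaged 0.0267 ± 0.00907 in TRAP (n = 5) and 0.0498 ± 0.0476 in input (n = 4). The second averaged 0.0450 ± 0.0309 in TRAP (n = 6) and 0.0522 ± 0.0544 in input (n = 4). The value of KO input 3, 0.118 and 0.130 in the 2 events, stood above the other input libraries. Gabbr1, a GABA-B receptor subunit, had 0.0381 ± 0.0325 in TRAP (n = 8) and 0.0328 ± 0.0225 in input (n = 6) at 124 bases, and neither gene's events passed (limma, adjusted p = 0.80, 0.989 and 0.963).

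For the effect of Celf6, KO and WT TRAP libraries were compared in 221 events (19.5%) with a PSI in at least 3 libraries of each genotype. None passed (limma, adjusted over 1861 events of all types; smallest adjusted p 0.323), beside 0% of all event types, and leaving out the library labelled KO TRAP 1 also gave 0 of 195 tested, 13 of them with an unadjusted p below 0.05. At an unadjusted p below 0.05 there were 13 events, 4 higher and 9 lower in KO, or 5.88% of those tested, beside 6.72% of all event types. The authors' deposited table, with an analysis of variance on the same values, also had 221 events with a p, 13 of them below 0.05. At a false discovery rate below 0.05 there were 0, beside 1 of 1861 events of all types. The smallest rate among the 221 was 0.340 for Ubb. The median difference was 0.33 in size and 0.34 over all events. Of the 107 tested events in genes bound in CLIP 6 had an unadjusted p below 0.05, and of the 114 in other genes 7 did. In simulated data of the TRAP libraries the test found 13.8%, 50.0% and 79.5% of events shifted by 1, 2 and 3 on the log2 scale among 1861 events.

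The event with the largest change of level among the 5 with the smallest p was in Rbfox3, the gene of the neuronal splicing factor NeuN. At chr11:118491241-118492638, sites 1397 bases apart with the upstream site annotated, PSI was 0.335, 0.398, 0.188, 0.451 and 0.321 in KO TRAP and 0.0823, 0.234, 0.133, 0.0875 and 0.170 in WT TRAP. Of 5 KO libraries, 4 lay above all WT libraries, and KO TRAP 3 overlapped with WT TRAP 2. The means were 0.339 ± 0.0988 in KO and 0.141 ± 0.0630 in WT (SD, n = 5 each), a log2 difference of 1.70 (SE 0.45; limma, adjusted p = 0.462; exact permutation test on this event alone, 2-sided p = 0.0159, unadjusted). The difference was 1.4 within the first run and 2.15 within the second. In input the PSI was 0.0766, 0.199, 0.137, 0.138 and 0.276 in KO and 0.116, 0.117 and 0.0899 in WT, a log2 difference of 0.58 (SE 0.49). The test of the genotype difference between the RNA kinds did not pass (1.11, SE 0.67; limma, adjusted p = 0.918). Rbfox3 is not among the genes bound in CLIP in the authors' table.

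The other 4 stayed at an edge in both genotypes. Ubb, a polyubiquitin gene, had sites 228 bases apart with PSI of 0.987, 0.979, 0.987, 0.978 and 0.983 in KO TRAP and 0.995, 0.995, 0.993, 0.991 and 0.99 in WT TRAP, which did not overlap. The log2 difference was −0.75 (SE 0.18; limma, adjusted p = 0.323; exact permutation p = 0.00794, the smallest that 5 against 5 can give). WT TRAP values above 0.99 entered both tests as 0.99, so the size of the difference depends on that limit. Ubb consists of near-identical ubiquitin repeats, so reads can be assigned to more than a single copy and its PSI is uncertain. Rpl13a, a ribosomal protein gene, had 0.0366, 0.0416, 0.0463, 0.0242 and 0.0334 in KO TRAP and 0.0547, 0.0709, 0.0564, 0.0401 and 0.0575 in WT TRAP for sites 16 bases apart (log2 difference −0.66, SE 0.17; limma, adjusted p = 0.460). Farsb, a subunit of the phenylalanine tRNA synthetase, had 0.945, 0.868, 0.904 and 0.917 in 4 KO TRAP libraries and 0.958, 0.983, 0.945, 0.959 and 0.972 in WT TRAP for sites 98 bases apart (−1.44, SE 0.43; limma, adjusted p = 0.554), the ranges meeting at 0.945. The Eef1b2 pair 31 bases apart had 0.0992, 0.0890, 0.0803 and 0.110 in 4 KO TRAP libraries and 0.0751, 0.0421, 0.0339, 0.0484 and 0.0197 in WT TRAP, without overlap (1.27, SE 0.39; limma, adjusted p = 0.554; exact permutation p = 0.0159). Several ribosomal and ubiquitin genes have processed copies elsewhere in the genome, and reads shared with such copies could not be separated here. Without the library labelled KO TRAP 1, the log2 difference was 1.68 in Rbfox3, −0.83 in Ubb, −0.62 in Rpl13a, −1.75 in Farsb and 1.26 in Eef1b2 (limma, adjusted p = 0.329 for Ubb and 0.554 to 0.704 for the others).

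**Figure D5:**
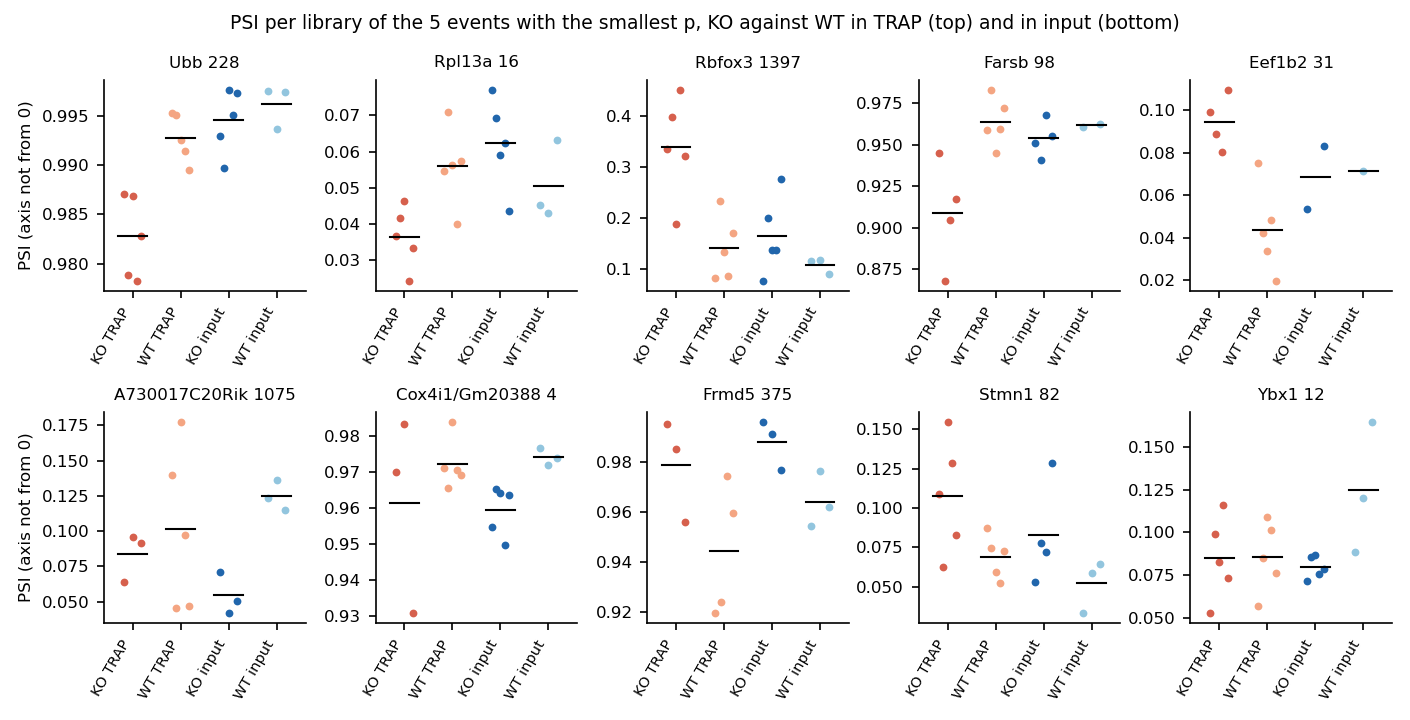
PSI per library (vertical axis) of the events with the smallest p between KO and WT, in TRAP and in input, with KO libraries left of WT libraries, bars at the mean of each group, and vertical axes that differ between panels and do not start at 0. Rbfox3 is the event whose KO values, 0.188 to 0.451, reach furthest from the WT values, 0.0823 to 0.234.

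A total of 5 events differed by more than 0.1 in mean PSI between KO and WT TRAP, and Rbfox3 was among them. Rundc3a had 0.568 ± 0.173 in KO (n = 4) and 0.354 ± 0.122 in WT (n = 3). Rnasek, listed with 0610010K14Rik, had 0.276 ± 0.113 in KO (n = 3) and 0.162 ± 0.0452 in WT (n = 4). Qk at 1280 bases had 0.744 ± 0.339 in KO (n = 5) and 0.641 ± 0.370 in WT (n = 3), and Anks1b had 0.258 ± 0.194 in KO (n = 3) and 0.499 ± 0.430 in WT (n = 5). Those 4 differences did not pass (limma, adjusted p = 0.846 to 0.909). Across the 221 events the mean PSI in KO and in WT TRAP had a correlation of 0.997, as a description.

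In input 144 events (12.7%) could be compared, and 0 passed (limma, adjusted over 1154 events; smallest adjusted p 0.960), beside 0% of all event types. The unadjusted p was below 0.05 in 8, 4 higher and 4 lower in KO, or 5.56%, beside 3.73% of all event types. The authors' deposited table had 185 events with a p in input, 8 of them below 0.05. At a false discovery rate below 0.05 there were 0, beside 0 of 1504 events of all types. The smallest rate among the 185 was 0.718 for A730017C20Rik. With 3 WT input samples after merging, the exact permutation test on a single event cannot go below 0.0179 for 5 against 3 or below 0.1 for 3 against 3. In simulated data of the input libraries the test found 24.0%, 61.8% and 84.2% of events shifted by 1, 2 and 3 on the log2 scale among 1154 events.

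A730017C20Rik, a gene of unassigned function, had PSI of 0.0707, 0.0416 and 0.0507 in 3 KO input libraries and 0.124, 0.136 and 0.115 in WT input for sites 1075 bases apart, without overlap (log2 difference −1.34, SE 0.27; limma, adjusted p = 0.960; exact permutation p = 0.1). Ybx1, a Y-box RNA-binding protein, had 0.0716, 0.0857, 0.0870, 0.0756 and 0.0785 in KO input and 0.0887, 0.120 and 0.165 in WT input for sites 12 bases apart, also without overlap (−0.68, SE 0.23; limma, adjusted p = 0.960), and without WT input 5 the difference was −0.37. Cox4i1, a cytochrome oxidase subunit listed together with Gm20388, had 0.95 to 0.965 in 5 KO input libraries and 0.972 to 0.977 in 3 WT input samples for sites 4 bases apart (−0.64, SE 0.18; limma, adjusted p = 0.960; exact permutation p = 0.0179). Frmd5 (sites 375 bases apart; 1.42, SE 0.39) and Stmn1, the microtubule regulator stathmin (82 bases; 0.84, SE 0.26), were the remaining 2 (limma, adjusted p = 0.960 each). In TRAP the differences of these 5 events ran from −0.34 to 1.54 and their genotypes overlapped in all 5. Without the library labelled WT input 2/3, which leaves 2 WT input libraries, 0 of 148 events passed and 9 had an unadjusted p below 0.05. The log2 difference was then −1.29 in A730017C20Rik, −0.66 in Ybx1, −0.73 in Cox4i1, 1.60 in Frmd5 and 1.08 in Stmn1 (limma, adjusted p = 0.881 each).

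Whether the KO minus WT difference itself differed between TRAP and input was tested in 209 events (18.4%). None passed (limma, adjusted over 1784 events; smallest adjusted p 0.822), beside 0% of all event types, and 11 had an unadjusted p below 0.05, 5 positive and 6 negative, or 5.26%, beside 5.33%. Npm1, the nucleolar protein nucleophosmin, had the smallest p. With sites 39 bases apart its PSI was 0.961 to 0.984 in KO TRAP and 0.982 to 0.991 in WT TRAP, against 0.971 to 0.989 in KO input and 0.954 to 0.981 in WT input (interaction −1.57, SE 0.48; limma, adjusted p = 0.822). Rpl13a at 16 bases (−1.01, SE 0.32) and Ubb (−0.74, SE 0.23) followed with the same adjusted p (limma, 0.822). Most Ubb input values were above 0.99 and entered the fit as 0.99, so a genotype difference in input could hardly show. The Ubb interaction therefore mostly repeats its difference in TRAP. In Npm1 the KO and WT ranges overlapped in TRAP and in input. Without the library labelled KO TRAP 1 the interaction was −1.35 in Npm1, −0.996 in Rpl13a and −0.83 in Ubb (limma, adjusted p = 0.883 each), and 0 of 198 events passed. Without the library labelled WT input 2/3 it was −1.85, −0.83 and −0.73 (limma, adjusted p = 0.652, 0.755 and 0.739), and 0 of 148 passed. In simulated data this test found 58.1% of events shifted by 3 on the log2 scale among 1784 events, fewer than the other comparisons.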

How the data were processed

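RNA-seq of TRAP and input RNA was processed by the authors with Trimmomatic and STAR on mm10, per the submitters' processing notes. PSI, a fraction from 0 to 1, was estimated with MISO by the authors, who kept values with a credible interval of at most 0.20, per the series' design text; the reads behind each PSI are not given, so its depth is unknown. Their p-values and q-values (FDR) from an analysis of variance are deposited beside it. Counts per gene were deposited as whole numbers from featureCounts 1.4.6-p5, without strand, per the file headers. The file header defines PSI for other event types, and the reading used here for a3ss was settled from annotated exon starts. Reads shared with near-identical gene copies cannot be traced in these files.

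Here PSI was held between limits of 0.01 and 0.99, turned into log2(PSI/(1−PSI)) and fitted with limma 3.58.1 (R 4.3.3) over all event types, with Benjamini-Hochberg adjustment over all events tested, a threshold of 0.05, and sequencing run as a term (replicates 1 to 3 in the first run, 4 and 5 in the second). KO against WT needed 3 libraries of each genotype, the interaction 2 in each of the 4 groups. Gene counts were tested with edgeR 4.0.16 (filterByExpr, TMM, quasi-likelihood) and DESeq2 1.42.0 as an alternative. Summaries used Python 3.11.15 and pandas 2.3.3. The fits were tested on simulated data with 200 changed events per comparison, in which PSI was not held between those limits. Named events were, per genotype comparison, the 5 with the smallest p; for TRAP against input the 10 with the smallest p, 6 of the 3-base pairs with the largest difference and 3 in each of 3 gene lists; and 3 for the interaction. That left 33 events, after an event of the 3-base pairs that is not reported here. The members and lists were chosen with earlier results of these data known.

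The same number in TRAP and input was taken as the same brain, since the design text gives 5 brains per genotype for both RNA kinds. Deviations of same-numbered TRAP and input libraries correlated from 0.00599 to 0.154 in KO and from 0.0342 to 0.0451 in WT. Between genotypes numbers name libraries only. Alternatives were other PSI limits, no logit, 1 more library, no run term, a mean-variance trend, a replicate block, each library left out, each genotype or run alone, 1 coefficient per group and WT input 2 and 3 kept apart.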

Additional observations from a re-analysis of the deposited data

Results flagged for a closer look

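In 88 groups of 4 or 5 libraries with a PSI of a named event, 7 held a library whose gap to the rest was large for the group's range; chance gives this in about 1 in 20 groups. KO TRAP 4 stood apart in the 3 Cdv3 events, which share reads, with 0.536 where the other KO TRAP libraries had 0.966 to 0.991 (716 bases, exon end 103353103), 0.494 against 0.959 to 0.991 (713 bases) and 0.539 against 0.969 to 0.993 (716 bases, exon end 103353102). The same library had a PSI of 0.640 in Mlf2 (21 bases), where the other KO TRAP libraries had 0.160 to 0.234. In Dnm1 (573 bases) KO TRAP 3 had 0.813, and the other KO TRAP libraries had 0.984 to 0.996. WT TRAP 4 had 0.909 in Fau (3 bases), and the other WT TRAP libraries had 0.856 to 0.860. KO input 5 had 0.936 in Fam98c (1046 bases), and the other KO input libraries had 0.0309 to 0.184.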

How the results depend on the processing

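The count of acceptor events at an adjusted p below 0.05 (limma) stayed 0 for KO against WT in TRAP and in input under every alternative run. In these comparisons the replicate block joined KO and WT libraries by number, an arbitrary match, so its 0 adds no support. For TRAP against input it was 0 in the fit reported and with the replicate block, and 1 with wider limits on PSI (from 0.001; the Eef1b2 event at 400 bases). It was also 1, the Eef1b2 event at 113 bases, with 1 more library needed, with no run term, with a mean-variance trend, with WT input 2 and 3 as 2 libraries and with 1 coefficient per group; leaving out each library gave 0 to 2 (2 without WT TRAP 1). The adjusted p of the Eef1b2 event at 113 bases ran from 0.0046 without WT TRAP 1 to 0.703 with the replicate block. The interaction gave 1 event (Shroom2 at 193 bases, adjusted p = 0.00893, limma) with PSI held between 0.05 and 0.95, and 0 with the replicate block. The mean PSI of the Shroom2 event was 0.0578 in TRAP and 0.0318 in input. Its values below 0.05 entered that fit as 0.05, so the result depends on that limit. The 19 genes that carry tested events and differ in counts were 7 with the replicate block and 9 to 23 leaving out each library.

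Of 903 alternative values for 36 event results, 878 kept direction and side of the threshold, 9 passed it and 16 turned in direction. These lay in 5 differences, and the cause was not tested. Mtss1l (−0.19) was −0.69 to 0.23 leaving out each library and 0.0431 with WT input 2 and 3 apart. Dnm1 at 573 bases (−0.82) was 0.0567 in the second run. Grin1 (−0.65) was −1.07 to 0.0718, and 0.0718 in WT alone; its second event (−0.07) was −0.44 to 0.79, 0.10 with no run term and 0.79 in WT alone. Gabbr1 (0.16) was −0.12 to 0.55, and −0.76 in KO alone. Of 168 values for 8 genes' counts, 3 turned: Cdv3 (0.13) was −0.0168 to 0.21 and Mtch2 (−0.06) was −0.16 to 0.16. With PSI held between 0.05 and 0.95 some events had every value at the limit and gave none. Few events had enough libraries with a PSI, and read numbers behind it are unknown.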
